A study of Mus musculus with 6 samples.

Results

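The 10 genes described here carry out base excision repair and the joining of single-strand breaks in DNA. They were taken from the table by their symbols: the DNA glycosylases Ogg1, Mutyh, Ung, Neil1 and Neil3, and the downstream genes Apex1, Xrcc1, Polb, Parp1 and Lig3. All 10 were among the 24110 genes of the table and among the 14113 with enough reads to be tested. The RNA came from hematopoietic stem cells, the cells of the bone marrow from which all blood lineages arise, sorted from C57BL/6 mice by the surface gate CD150+ CD48- Sca-1+ Lineage-. The compared groups were Prmt5 fl/fl, in which the floxed gene was intact, and Prmt5 KO (Prmt5Δ/Δ), in which it was deleted, both 7 days after induction, with 3 libraries each. Each library pooled the cells of 2 mice, and the genotypes were matched by litter and sex. The sources used here do not give the inducing agent, the Cre line or the age of the animals. Prmt5 encodes an arginine methyltransferase, and the series title ties it to splicing in these cells. The values are read totals per gene, so isoforms were not analysed here.

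Base excision repair removes single damaged bases. A glycosylase recognizes one kind of damage and cuts the base from the sugar, the endonuclease APEX1 cuts the strand at the empty site, PARP1 binds the break, XRCC1 gathers the enzymes, the polymerase POLB fills the gap and the ligase LIG3 seals it. In a longer form of the pathway the replication polymerases, the clamp PCNA, the flap nuclease FEN1 and the ligase LIG1 replace a short stretch of the strand.

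Facts of the libraries that bear on these genes were as follows. The libraries held 37834096 to 44704636 reads in genes, and values below are scaled counts, that is, reads scaled to a common total of 44704636. Prmt5 was at 6010 to 6076 in Prmt5 fl/fl and at 897 to 1056 in Prmt5 KO, so each library matched its label (limma adjusted p = 6.18e-04, and 0.0618 when blocked by replicate). Among all genes tested, 39 (0.276%) passed the threshold as higher and 64 (0.453%) as lower in Prmt5 KO (limma, adjusted p below 0.05). With median-of-ratios size factors the counts were 35 and 22, with TMM scaling 35 and 32, and with quantile normalization 38 and 26. Prmt5 fl/fl replicate 3 stood apart by gene length: against the other fl/fl libraries its median log2 difference was 0.46 for genes of up to 1543 bases and -0.69 for genes of 4707 bases or more. Of 10 stem cell markers none was at 0, and their summed level was 2949 to 4145 CPM (gene reads scaled to the same sum in each library) in fl/fl and 2962 to 3421 in KO. The summed level of 10 red cell precursor markers was 132 to 271 CPM in fl/fl and 85.9 to 93.3 in KO, with Hba-a1 and Hbb-bs listed at 0 in every library, and 1 of the 8 tested, Klf1, was lower (limma adjusted p = 0.0476, and 0.161 when blocked). The 11 megakaryocyte and platelet markers summed to 1624 to 1990 CPM in fl/fl and 719 to 1354 in KO, and 2 of them, Itga2b and Rab27b, were lower (limma adjusted p = 0.0195 and 0.0475, and 0.103 and 0.197 when blocked). The 9 granulocyte and monocyte markers summed to 655 to 3571 CPM in fl/fl and 985 to 8998 in KO, with the highest value in KO replicate 3, and 9 lymphocyte markers to 43.3 to 66.8 and 37.7 to 47.4. Of these last 2 lists 0 tested genes passed the limma threshold. In KO replicate 3 the T cell genes Cd3e, Cd3g and Cd8a were at 154, 124 and 87.4 scaled counts, against 0 to 20.3 in the other libraries. Cd4, at 85.1 there, lay within the 63.8 to 172 of the others. DESeq2 called Cd8a higher (DESeq2 adjusted p = 0.0281). In bulk RNA, fewer cells of a kind and less RNA per cell cannot be told apart.

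No member passed the threshold over all genes in either direction (limma, 0 of 10, against 0.276% and 0.453% of all genes). At an unadjusted p below 0.05 limma counted 1 member, Neil3, as lower and 0 as higher, where 13.6% of all genes tested were counted lower and 4.58% higher. EdgeR called 0 members, and DESeq2 called 1, Neil3, as lower. Among all 14113 genes tested edgeR called 34 higher and 26 lower, and DESeq2 called 365 higher and 616 lower. The libraries of the 2 genotypes were apart, with no overlap, for Neil3 and Neil1, both lower in KO. Over all genes tested 19.9% were apart and lower and 8.3% apart and higher. The count of members apart and lower, 2 of 10, thus lies near the share over all genes and does not set the members apart. The median log2 fold change of the members was 0.0012 and that of all genes tested was -0.048. By role, the 5 glycosylases had a median of -0.074, which was 0.013 with median-of-ratios size factors. The 5 downstream genes had a median of 0.155, which is the value of Parp1 and was -0.00077 without fl/fl replicate 3. The difference between the roles was not tested.

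Levels were compared between genes per gene length, as TPM, reads per base of the deposited gene length scaled to the same sum in each library. Parp1, the sensor of strand breaks, was highest in Prmt5 fl/fl at 194 ± 61.7 TPM (SD, n = 3), above 92.5% of all tested genes. Apex1 stood at 107 ± 8.52, Xrcc1 at 92.4 ± 5.50, Neil3 at 78.5 ± 5.98 and Polb at 70.8 ± 4.52. Neil3 was thus the most abundant glycosylase of the members and lay within the range of the downstream genes. Lig3 followed at 34.7 ± 16.8, Neil1 at 29.4 ± 5.21, Ogg1 at 25.9 ± 4.69, Mutyh at 16.5 ± 0.822 and Ung at 11.2 ± 4.35, the last above 38.0% of tested genes. Neighbours in this order whose fl/fl ranges overlapped were Neil3 and Polb, Lig3 and Neil1, and Neil1 and Ogg1. The order depends on the deposited lengths. GENCODE M21 lists 3940 exonic bases for Polb (deposited length 1227), 5831 for Xrcc1 (2155) and 1422 for Apex1 (1307). Levels with those lengths were not computed.

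In Prmt5 KO the order differed at 2 places. Polb, at 80.9 ± 0.799 TPM, stood above Neil3, at 41.3 ± 12.5, and their ranges did not overlap (80.2 to 81.8 and 30.9 to 55.2). Ogg1, at 22.0 to 29.9 TPM, stood above Neil1, at 21.1 to 22.8, with ranges that overlapped. The plot of levels per gene length shows both exchanges.

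**Figure D1:**
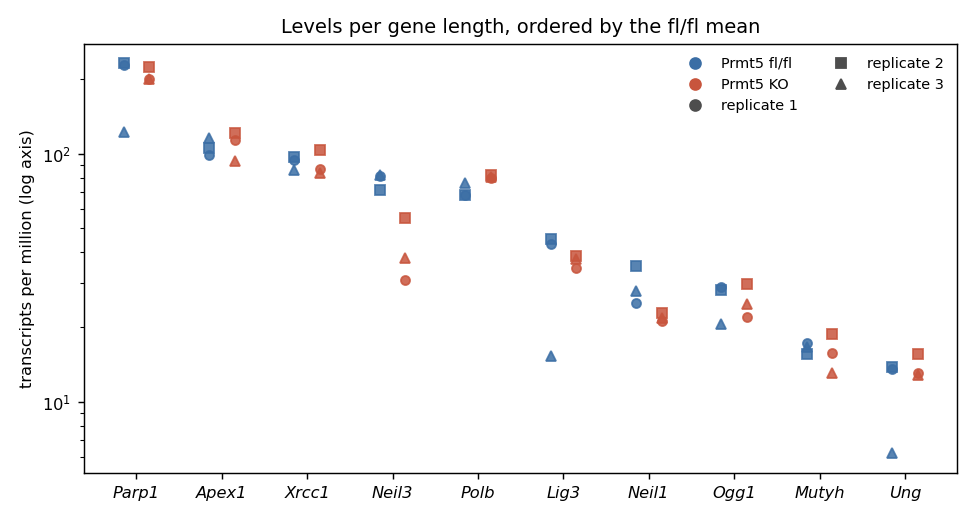
Level of each of the 10 genes in TPM (log axis), 1 point per library, with Prmt5 fl/fl in blue, Prmt5 KO in red and marker shapes for replicates, ordered by the fl/fl mean. Parp1 is highest and Ung lowest, the KO points of Neil3 (30.9 to 55.2) lie below its fl/fl points (71.6 to 82.3), and the fl/fl replicate 3 points of Parp1, Lig3 and Ung lie below the other fl/fl points.

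Neil3 had the largest difference among the members. NEIL3 is a glycosylase of the Fpg and Nei family that acts on oxidized bases in single-stranded DNA and on crosslinks at stalled replication forks, and its gene is known from proliferating and progenitor cells. The gene (ENSMUSG00000039396.11) lies on chromosome 8, 53586867 to 53639065, minus strand (GRCm38/mm10, GENCODE M21). The scaled counts of Neil3 in fl/fl replicates 1, 2 and 3 were 3820, 3292 and 4447, against 1523, 2624 and 1858 in the corresponding KO libraries. Every KO library was below every fl/fl library, and KO replicate 2 was the highest of the KO values. Mean Neil3 was 3853 ± 578 in fl/fl and 2002 ± 564 in KO (SD, n = 3). The log2 fold change was -0.97 (SE 0.22), which puts KO at 0.51 of the fl/fl level with a 95% interval of 0.36 to 0.73. The limma adjusted p was 0.0894, which missed the threshold. By edgeR the adjusted p was 0.120 and by DESeq2 it was 0.0107, and limma blocked by replicate number gave an adjusted p of 0.233.

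Within the pairs of libraries that share a replicate number the log2 difference of Neil3 was -1.33, -0.33 and -1.26. Prmt5 itself differed by -2.52, -2.52 and -2.74 in these pairs. A relation between the differences of the 2 genes was not tested. With each library left out in turn the log2 fold change of Neil3 ran from -1.18, without KO replicate 2, to -0.79, without KO replicate 1. The limma adjusted p of these fits was 0.0786 to 0.301. The smallest Neil3 count was 1289 reads, a counting error of at most 2.79%. Amplified reads are not independent molecules, so this figure covers counting alone.

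The start regions of Neil3 and Neil1, the members with the genotypes apart, and of Nthl1, the glycosylase outside the members with the smallest p, are given to show what they do and do not share. They are RefSeq sequences on GRCm38.p6, from 250 bases before to 50 after the gene start, at chr8:53639016-53639315 (minus strand) for Neil3, chr17:24632432-24632731 (plus strand) for Nthl1 and chr9:57148256-57148555 (minus strand) for Neil1. Capitals mark the motifs searched on both strands: the cell cycle element CHR (TTTGAA or TTCGAA), the E2F sites TTTCCCGC, TTTGGCGC, TTTCGCGC and TTTGCCGC, the CCAAT box (CCAAT), the GC box (GGGCGG) and the NRF1 site. Motifs that overlap were counted separately.
Neil3: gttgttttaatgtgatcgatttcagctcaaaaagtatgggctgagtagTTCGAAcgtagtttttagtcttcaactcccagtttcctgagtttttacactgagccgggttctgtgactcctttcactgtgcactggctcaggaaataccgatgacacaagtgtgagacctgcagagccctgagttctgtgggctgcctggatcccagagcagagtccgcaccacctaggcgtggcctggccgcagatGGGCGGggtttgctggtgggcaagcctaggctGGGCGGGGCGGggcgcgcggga
Nthl1: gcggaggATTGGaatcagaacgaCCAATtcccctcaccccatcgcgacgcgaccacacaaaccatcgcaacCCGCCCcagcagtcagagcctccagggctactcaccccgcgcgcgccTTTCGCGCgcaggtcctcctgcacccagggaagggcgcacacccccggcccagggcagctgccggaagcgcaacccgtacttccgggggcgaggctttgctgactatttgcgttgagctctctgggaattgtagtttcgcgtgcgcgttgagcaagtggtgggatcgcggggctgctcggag
Neil1: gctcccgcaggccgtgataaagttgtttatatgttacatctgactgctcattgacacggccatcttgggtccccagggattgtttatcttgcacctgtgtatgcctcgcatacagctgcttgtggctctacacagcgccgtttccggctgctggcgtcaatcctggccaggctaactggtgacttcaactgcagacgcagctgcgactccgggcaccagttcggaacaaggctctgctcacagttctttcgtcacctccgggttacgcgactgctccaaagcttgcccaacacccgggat

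The Neil3 region held a CHR at position -202 from the gene start and GC boxes at -4, 29 and 34, of which the last pair overlap. The Nthl1 region held an E2F site at -132, CCAAT boxes at -243 and -227 and a GC box at -179, and in the Neil1 region none of these letters were found. Of 32851 regions of this length 19.2% held a CHR, 2.26% an E2F site, 37.4% a CCAAT box, 35.7% a GC box and 0.971% an NRF1 site. RefSeq regions were matched for 9 of the 10 members, all but Polb. Among these 9, 7 held a GC box, 4 a CCAAT box and 2 a CHR (Apex1 and Neil3), and 0 held an E2F or NRF1 site. A match is a string of letters in this window, and binding was not measured.

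The 5 genes whose log2 values over the 6 libraries were most like those of Neil3 were Traf1, a signal adaptor of the tumor necrosis factor receptors, Aqp11, an aquaporin, Krt8, a keratin, Mxd3, a partner of MAX, and Bfsp1, a filament protein of the lens. Each had a Pearson r of 0.992 over 6 libraries, with the difference between genotypes included. They were picked for the highest r among all tested genes, clone-like symbols left out. Such a choice over 6 libraries yields a high r by itself, so the r is no test of a link to Neil3. Bfsp1 rests on 3 to 29 reads a library. Their log2 fold changes ran from -0.51 for Traf1 to -1.71 for Bfsp1, and none passed the limma threshold (adjusted p = 0.0829 for Aqp11 to 0.206 for Traf1).

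Because Neil3 is known from dividing cells, genes of the cell cycle were read beside it. Of 18 proliferation genes limma called 0, and neither edgeR (0) nor DESeq2 (0) called any. By limma 0 had an unadjusted p below 0.05, where 13.6% of all genes were lower and 4.58% higher. Their folds were above 0 for 9 and below 0 for 9, with a median log2 fold change of -0.0072, and their summed level was 5812 to 6696 CPM in fl/fl and 5554 to 6501 in KO. The 3 proliferation genes with the smallest p were Mcm7, a subunit of the replicative helicase, at a log2 difference of -0.29 (limma adjusted p = 0.293), Top2a, topoisomerase II alpha, at -0.27 (limma adjusted p = 0.399), and Bub1, a kinase of the spindle checkpoint, at 0.24 (limma adjusted p = 0.435). The summed red cell precursor and megakaryocyte markers were apart between the genotypes in the same direction as Neil3. At a limma unadjusted p below 0.05, 5 of 8 tested red cell precursor markers were lower, against 13.6% of all genes. Of 11 tested megakaryocyte markers 6 were lower at that p. The part of these markers, and of the cell cycle, in the difference of Neil3 was not tested.

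Neil1, a glycosylase of the same family that removes oxidized pyrimidines, was the other member with the genotypes apart. The gene (ENSMUSG00000032298.13) lies on chromosome 9, 57142800 to 57148305, minus strand. Neil1 had 611, 841 and 784 scaled counts in fl/fl replicates 1, 2 and 3, against 541, 561 and 555 in the corresponding KO libraries. The KO libraries lay close together just below the lowest fl/fl library, replicate 1. Mean Neil1 was 745 ± 120 in fl/fl and 553 ± 10.3 in KO (SD, n = 3), and the log2 fold change was -0.42 with a 95% interval of -0.84 to 0.0044 (limma adjusted p = 0.278). With each library left out it was -0.55 to -0.33, and with the trend of each library with gene length removed it was -0.21.

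**Figure D2:**
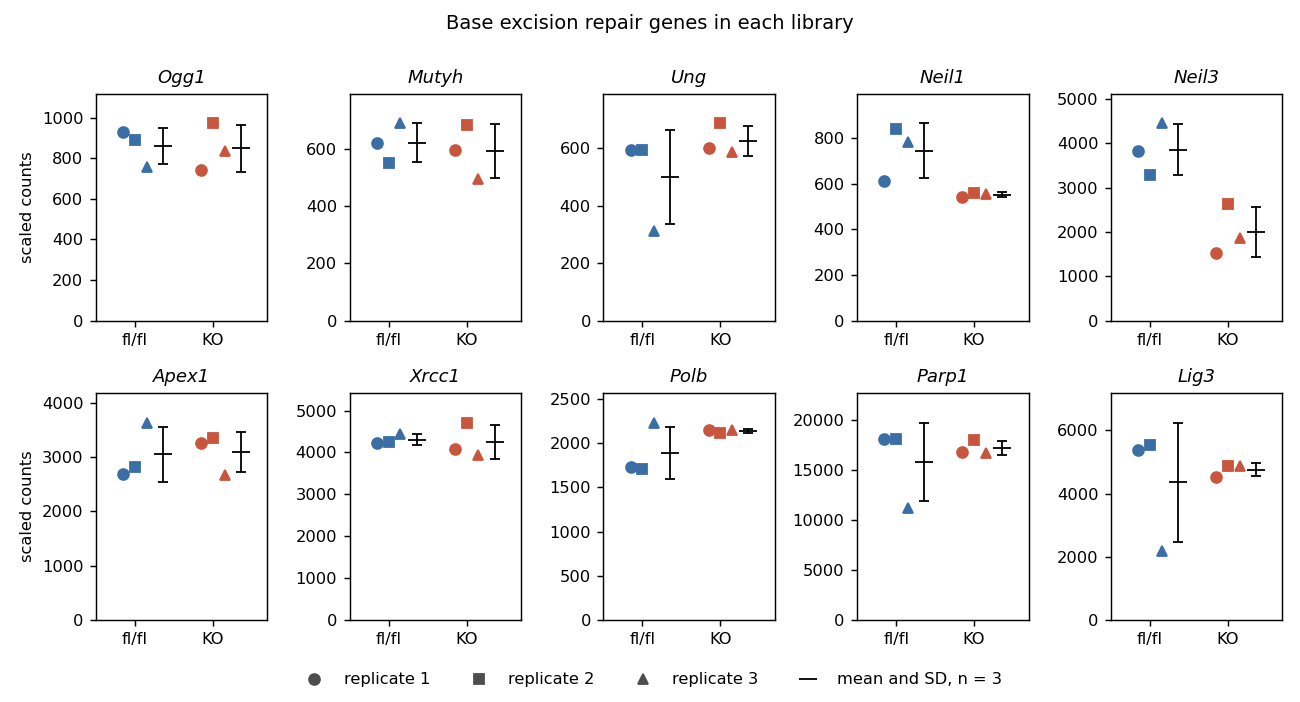
Scaled counts of the 10 genes in each library, with points for replicates 1 to 3 of Prmt5 fl/fl (blue) and Prmt5 KO (red) and a bar for the mean and SD (n = 3), each axis starting at 0. The genotypes are apart for Neil1 and Neil3, and fl/fl replicate 3 is the low point of Ung (311), Parp1 (11232) and Lig3 (2188).

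Ung, which removes uracil from DNA, had 593, 593 and 311 scaled counts in the fl/fl libraries and 601, 686 and 588 in the KO libraries. Apart from fl/fl replicate 3 the libraries lay close together, and the groups overlapped by 1 KO value. The log2 fold change was 0.38 with a 95% interval of -0.27 to 1.03 (limma adjusted p = 0.504). Without fl/fl replicate 3 it was 0.07.

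Ogg1, the glycosylase for 8-oxoguanine, had 931, 889 and 759 scaled counts in the fl/fl libraries and 742, 972 and 834 in the KO libraries. Mutyh, which removes adenine paired with 8-oxoguanine, had 622, 553 and 689 in fl/fl libraries, against 598, 685 and 496. For both genes the groups overlapped. The log2 fold changes were -0.02 for Ogg1 and -0.07 for Mutyh (limma adjusted p = 0.959 and 0.862), and the 95% intervals ran from 0.74 to 1.31 and from 0.70 to 1.30 of the fl/fl level. With median-of-ratios size factors the values were 0.07 and 0.01, so no direction is given for either. Of the exonic bases of Ogg1, 10.6% also lie in exons of Camk1 on the other strand.

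Apex1, the endonuclease that cuts the strand at the site left by a glycosylase, had 2692, 2822 and 3635 scaled counts in the fl/fl libraries and 3254, 3349 and 2661 in the KO libraries. The highest value was that of fl/fl replicate 3 and the lowest that of KO replicate 3. Its log2 fold change was 0.02, with an interval of 0.78 to 1.33 of the fl/fl level (limma adjusted p = 0.954). In GENCODE M21, 61.7% of its exonic bases also lie in exons of Pip4p1 on the other strand, and as these libraries are not stranded, reads of both genes cannot be told apart there.

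Xrcc1, the scaffold of the pathway, had 4219, 4255 and 4453 scaled counts in the fl/fl libraries and 4091, 4716 and 3936 in the KO libraries. The KO values lay on both sides of the fl/fl values. The log2 fold change was -0.02 (SE 0.12, limma adjusted p = 0.933), and the 95% interval, 0.81 to 1.20 of the fl/fl level, was the narrowest among the members. With median-of-ratios size factors its value was 0.06, and that of Apex1 was -0.06 without fl/fl replicate 1, so no direction is given for either.

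Polb, the gap-filling polymerase, had 1736, 1712 and 2237 scaled counts in the fl/fl libraries and 2154, 2116 and 2157 in the KO libraries. The KO libraries were nearly level and above fl/fl replicates 1 and 2, and fl/fl replicate 3 was higher still. The log2 fold change was 0.19 with a 95% interval of -0.16 to 0.54 (limma adjusted p = 0.539). Without fl/fl replicate 3 it was 0.31 (limma adjusted p = 0.111), and with the length trend removed it was 0.40 (limma adjusted p = 0.0640), neither past the threshold.

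Parp1, the enzyme that marks strand breaks with chains of ADP-ribose, had 18088, 18066 and 11232 scaled counts in the fl/fl libraries and 16793, 18019 and 16743 in the KO libraries. All libraries but fl/fl replicate 3 lay between 16743 and 18088, and that library was below them. The log2 fold change was 0.15 with a 95% interval of -0.30 to 0.61 (limma adjusted p = 0.698). It was -0.07 without fl/fl replicate 3.

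Lig3, the ligase that seals the nick, had 5372, 5537 and 2188 scaled counts in the fl/fl libraries and 4510, 4888 and 4879 in the KO libraries. The KO libraries lay below fl/fl replicates 1 and 2 and above fl/fl replicate 3. The log2 fold change was 0.24 with the widest interval of the members, -0.55 to 1.04 (limma adjusted p = 0.734), and it was -0.20 without fl/fl replicate 3 (limma adjusted p = 0.213). Of its exonic bases 25.1% also lie in exons of Rffl on the other strand, so those reads cannot be told apart either.

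**Figure D3:**
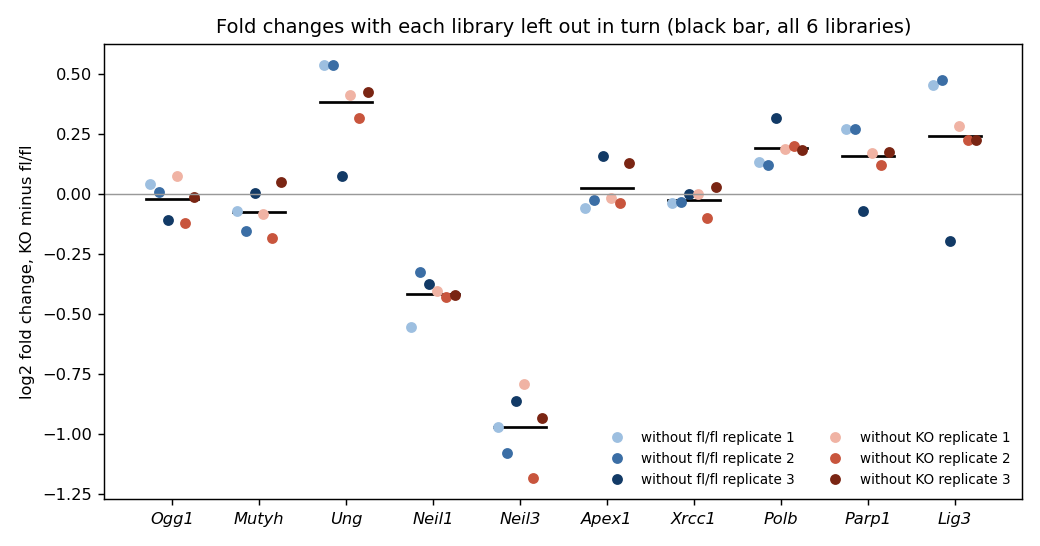
Log2 fold change of each gene (Prmt5 KO minus fl/fl) with each library left out in turn (points) and with all 6 libraries (black bars). The values of Neil3 (-1.18 to -0.79) and Neil1 (-0.55 to -0.33) stay below 0, and those of Lig3 and Parp1 cross 0 without fl/fl replicate 3.

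The deviation of fl/fl replicate 3 from fl/fl replicates 1 and 2 was read against gene length for each member. Lig3, whose deposited length of 5971 bases was the longest of the members, was lower in that library by a log2 difference of -1.32, and Parp1, with 3827 bases, by -0.69. The median of all tested genes of 4707 bases or more was -0.69, and that of genes of 3310 to 4706 bases was -0.31. Polb (1227 bases) and Apex1 (1307 bases) differed by 0.38 and 0.40, where the median of genes up to 1543 bases was 0.46. Ung, with a deposited length of 2097 bases, was at -0.93, against a median of 0.27 in the bin of that deposited length. Neil3, with 2253 bases and in the same length bin, was at 0.33. Mutyh (1736 bases) and Xrcc1 (2155 bases), also in that bin, were at 0.23 and 0.07. Neil1 (1170 bases) was at 0.13, below the 0.46 of its bin. Ogg1, whose 1543 bases lie at the edge of these bins, was at -0.26, below both medians. These bins rest on the deposited lengths. GENCODE M21 lists more exonic bases for each member, such as 5468 for Ung, 5555 for Neil3 and 5831 for Xrcc1. The length of the RNA in these cells was not measured, so the place of Ung against the length trend is uncertain. The part of gene length in the members' differences was not tested.

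**Figure D4:**
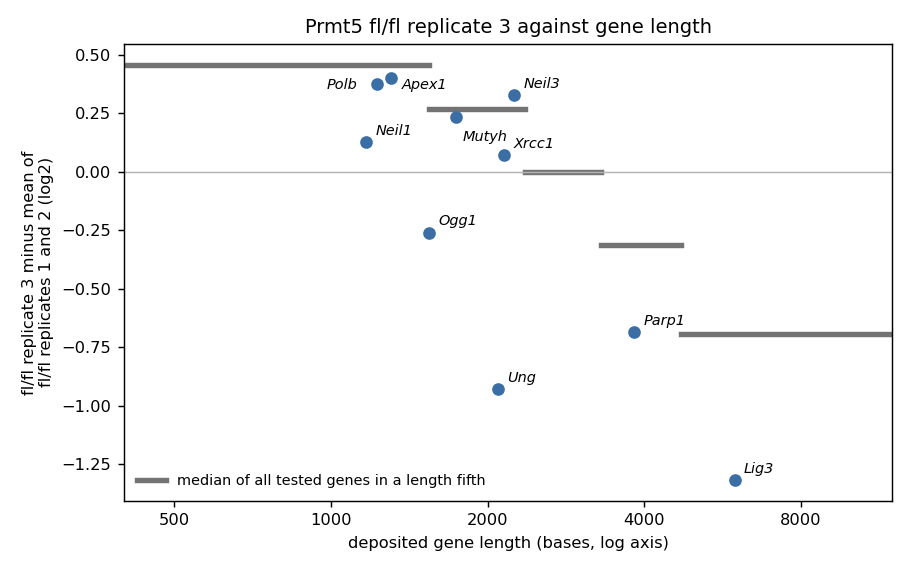
Log2 difference of fl/fl replicate 3 from the mean of fl/fl replicates 1 and 2 against the deposited gene length (log axis), with blue points for the 10 genes and grey bars for the median of all tested genes in each of 5 length bins, within the plotted range. Lig3 (-1.32) and Parp1 (-0.69) lie low at the long end, and Ung (-0.93) and Ogg1 (-0.26) lie below the bars at their lengths.

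The other genes of the pathway were read in 4 lists. Of 31 genes 30 were tested, and 0 were higher and 0 lower by limma or by edgeR. DESeq2 called 2 lower, Nthl1 and Pold4, where it called 616 of all 14113 genes lower. At an unadjusted p below 0.05 limma counted 6 of the 30 as lower, against 13.6% of all genes tested, and 0 as higher. Apart and lower were 7, against 19.9% of all genes, and apart and higher were 2, against 8.3%, so these counts lie near the shares over all genes. Their median log2 fold change was -0.13, against -0.048 for all genes.

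The other glycosylases lay below 0 throughout: of 5 tested, limma called 0, 4 had an unadjusted p below 0.05 (13.6% of all genes were lower at that p), and 4 were apart and lower (19.9% of all genes). Of all genes 7792 of 14113 lay below 0. Their median log2 fold change was -0.57. Nthl1, which removes oxidized pyrimidines like NEIL1, had 710, 709 and 1029 scaled counts in the fl/fl libraries and 392, 525 and 371 in the KO libraries. Its log2 fold change was -0.92 with a 95% interval of -1.46 to -0.38 (limma adjusted p = 0.107, DESeq2 adjusted p = 0.0210). Smug1, a second uracil glycosylase, was at 815 to 948 in fl/fl and 463 to 751 in KO (log2 -0.57, limma adjusted p = 0.220), and Mbd4, which acts on T and U opposite G at CpG sites, at 2089 to 2345 and 1517 to 1820 (log2 -0.43, limma adjusted p = 0.174). Neil2, of the family of NEIL1 and NEIL3, was low at 39.2 to 48.0 in fl/fl and 16.5 to 25.7 in KO (log2 -0.99, limma adjusted p = 0.247). The groups of Mpg, which removes alkylated purines, overlapped, at a log2 difference of -0.27 (limma adjusted p = 0.510). Of the exonic bases of Mpg, 35.7% also lie in exons of Nprl3 on the other strand, and reads of both genes cannot be told apart there. Tdg was under the minimum at 1.00 to 15.4 scaled counts, and as annotated pseudogene copies of it exist this value is uncertain.

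Counting members and other genes together, 10 glycosylases were tested and 9 had a log2 fold change below 0, against 7792 of 14113 genes, the exception being Ung. Ogg1 and Mutyh, which have no settled direction, are among the 9, and with median-of-ratios size factors or DESeq2 both were above 0 and 7 of the 10 lay below 0. Of the 10, 6 were apart and lower, where 19.9% of all genes were, and 0 passed the limma threshold. The median log2 fold change of these 10 was -0.42.

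Of 11 tested genes that process strand ends or turn over ADP-ribose, 0 passed the limma threshold, and neither edgeR (0) nor DESeq2 (0) made a call. At a limma unadjusted p below 0.05, 0 were lower and 0 higher, against 13.6% and 4.58% of all genes. Their median log2 fold change was -0.031. Apex2, a second AP endonuclease, was at 692 to 879 scaled counts in Prmt5 fl/fl and 936 to 1076 in Prmt5 KO, apart and higher, at a log2 difference of 0.38 (limma adjusted p = 0.281). Poll, polymerase lambda, was likewise apart, at 940 to 1130 and 1190 to 1384 (log2 0.33, limma adjusted p = 0.305). Tdp1, which frees DNA ends from trapped topoisomerase I, was apart and lower, at 3329 to 3865 and 2771 to 3151 (log2 -0.26, limma adjusted p = 0.336).

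In the long form of the pathway, 12 genes were tested and 0 passed the limma threshold. At a limma unadjusted p below 0.05, 2 (16.7%) were lower, Pold4 and Rfc2, near the 13.6% of all genes. At that p 0 were higher, against 4.58% of all genes. Pold4, the small subunit of DNA polymerase delta, had 943, 1183 and 1832 scaled counts in the fl/fl libraries and 613, 707 and 571 in the KO libraries. Its log2 fold change was -1.01 (limma adjusted p = 0.109, DESeq2 adjusted p = 0.0120), and with the length trend removed it was -0.84 (limma adjusted p = 0.0458, and 0.110 with the block as well). An annotated protein-coding gene on the same strand shares 24.6% of its exonic bases. Rfc2, a subunit of the clamp loader, was at 13542 to 18394 and 10016 to 12878 (log2 -0.45, limma adjusted p = 0.190), and for Rfc3, another subunit, the log2 difference was 0.21 (limma adjusted p = 0.474). The nucleotide pool enzymes Nudt1, which clears oxidized nucleotides, and Dut, which clears dUTP, overlapped between the genotypes, with log2 fold changes of -0.15 and 0.02 (limma adjusted p = 0.694 and 0.966).

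**Figure D5:**
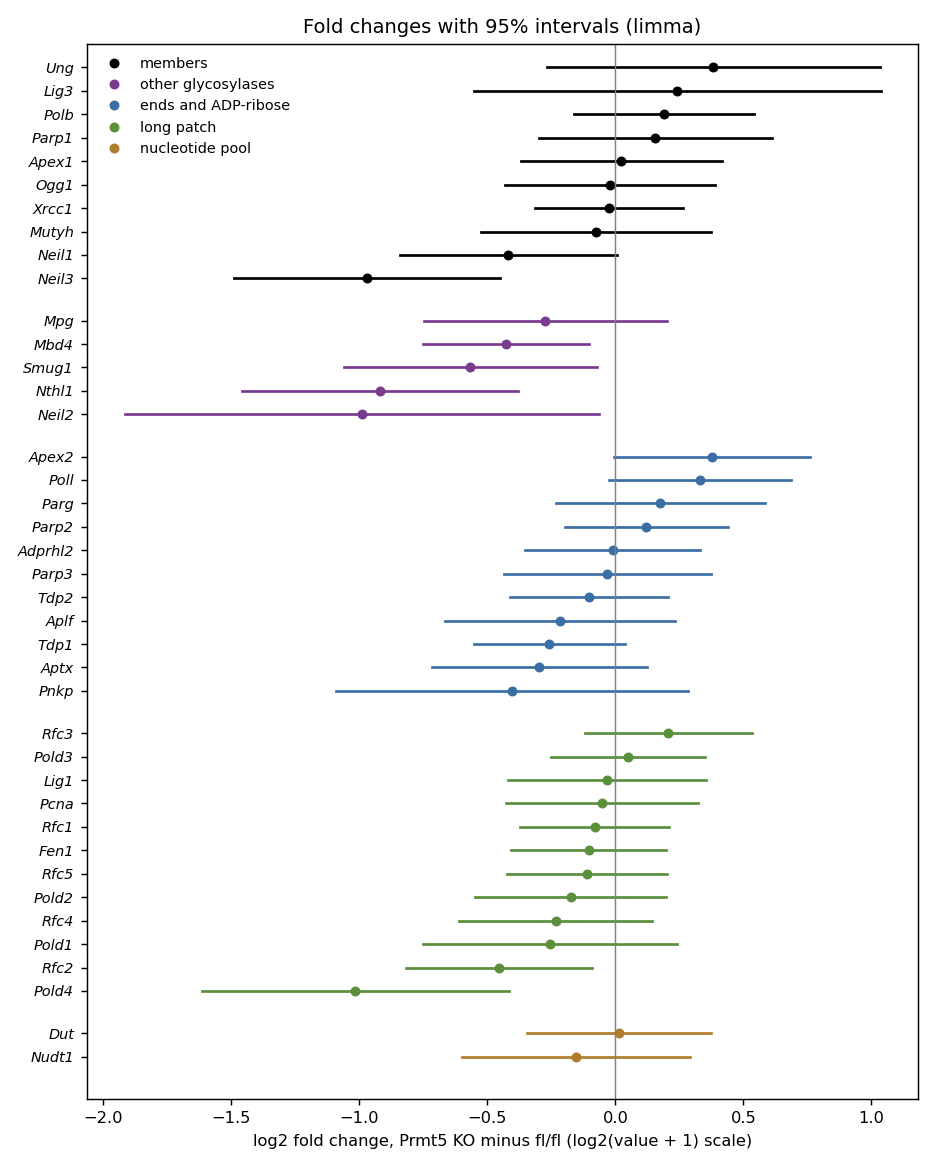
Log2 fold changes (Prmt5 KO minus fl/fl, log2(value + 1) scale) with 95% limma intervals for the 10 genes and the 30 other tested genes of the pathway, coloured by list. The points of Neil3 (-0.97) and of the 5 other glycosylases lie below 0, and the intervals of all members but Neil3, and that of Mpg, hold 0.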

How the data were processed

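Per the labels' protocols, RNA was extracted with Trizol, amplified by SMART-Seq v4 and tagmented with Nextera XT. Per the submitters' processing notes, STAR, featureCounts and mm10 were used. Versions and annotation: not given in the sources used here. Read counts are what the authors deposited for Prmt5 fl/fl replicate 2. The other 5 deposited columns hold a scaled signal, each count multiplied by 44704636 over the library's total, and undoing this gave whole reads for 100% of values (tolerance 1e-06).

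On the log2(value + 1) scale, genes averaging 10 or more over all libraries were compared by limma with a mean-variance trend (4 residual degrees of freedom, two-sided), with Benjamini-Hochberg adjustment over all 14113 genes and a threshold of 0.05. Fold changes on this scale understate those of low genes. Levels per length used the deposited gene length. Because each library is a pool of 2 mice, p-values measure spread between pools. Total counts of 37834096 to 44704636 leave a counting error of at most 5.83% for any member in any library.

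Litter matching, and a title prefix that each replicate number shares across genotypes, led to the numbers being read as pairs, but the main fit is unpaired and the replicate block is an alternative. The labels do not explain the prefix, and the pairs' deviations correlated at -0.14, 0.067 and -0.26. No library was a copy of another (chi-square per degree of freedom 26.2 to 357). The members, the lists and the tests were chosen with earlier results of these data known. Named genes were the members, Prmt5, in each other list those past the threshold or else the 3 with the smallest p, and the 5 most like Neil3. Neil2, Mpg and Tdg were added after their values were seen, as were Hba-a1, Hbb-bs, Klf1, Itga2b, Rab27b, Cd3e, Cd3g, Cd4 and Cd8a. The fit was tested on simulated data with known folds. It recovered 0% of genes with a true fold of 1.5 and 32.7% of those with 2. At true folds of 4 and 8 it recovered 76% and 93.9%. Alternatives were pseudocounts, filters, scalings, edgeR and DESeq2 on the recovered reads, a replicate block, each library left out and, chosen after seeing the data, removal of each library's trend with gene length by lowess. Coordinates and overlaps are from GENCODE M21, by symbol. R 4.3.3, limma 3.58.1, edgeR 4.0.16, DESeq2 1.42.0, Python 3.11.15 and matplotlib 3.10.9 were used.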

Additional observations from a re-analysis of the deposited data

How the results depend on the processing

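Of 10 members, 0 passed the threshold, higher or lower, in each of the 19 alternatives except DESeq2, which called 1 lower, Neil3. Of the other 30 pathway genes tested, 2 were called lower by DESeq2, Nthl1 and Pold4, 1 with the length trend removed, Pold4, and 0 in the rest. The log2 fold changes of Neil3, Neil1, Ung and Polb kept their sign in all 19, and those of Ogg1, Mutyh, Apex1 and Xrcc1 kept it in 9, 13, 15 and 11. The values of Lig3 and Parp1 kept theirs in 18, turning without Prmt5 fl/fl replicate 3. With the replicate block limma called 0 members, 0 other pathway genes, and 1 gene higher and 0 lower among all genes. Prmt5 then had a limma adjusted p of 0.0618. Klf1, Itga2b and Rab27b also lost their calls, and Pold4 lost its call with the length trend removed (adjusted p = 0.110). The paired fit changed no other call of a named gene. Among all genes, DESeq2 called 365 higher and 616 lower, edgeR 34 and 26, TMM scaling 35 and 32, median-of-ratios size factors 35 and 22, quantile normalization 38 and 26, and no filter 34 and 38. Removing the length trend gave 231 and 239, and with the replicate block as well 1 and 1. With each library left out the counts were 1 to 121 higher and 2 to 257 lower, the largest without fl/fl replicate 3 and the smallest without KO replicate 1 or 3 (1 and 2). The causes of these shifts were not tested. Without division by gene length Lig3 ranked second among the members in place of sixth. With 3 libraries a group a missed threshold does not show an equal level. Counting errors do not cover amplification.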
